A study of Mus musculus with 20 samples.

Results

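Glycolysis, glycogen turnover and the pentose phosphate pathway were followed through 38 named genes, the carriers of glucose and lactate, the enzymes of glycolysis and of glycogen, and 3 enzymes of the pentose phosphate pathway, out of 22640 gene names in the count table. The genes were picked by name, with earlier results of these data known. All 38 had a row, and Aldoa had a second one, which was kept apart. RNA was sequenced from whole plantaris muscle of 20 old mice (labelled 2 years), 5 per group. Mechanical overload (MOV) was produced in both legs by cutting away part of the gastrocnemius and soleus, so that the plantaris carried more load, and sham surgery opened the skin only. Mice of both surgeries received either vehicle or the senolytic mixture D + Q, a gavage of the tyrosine kinase inhibitor dasatinib at 5 mg/kg together with the flavonoid quercetin at 50 mg/kg. Surgery and treatment together gave 4 groups. The muscle was taken on day 14 after gavage on days 7 and 10, although the study's description gives day 14 for the second gavage of the sham mice. The study's methods name the animals as male C57BL/6 J mice, and no young mice are compared here.

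Glycolysis splits glucose to pyruvate and yields ATP without oxygen, and fast muscle fibers depend on it for short, strong contractions. They carry a glycogen store, which phosphorylase opens when phosphorylase kinase, itself driven by calcium and adrenaline, switches it on. Several steps are catalyzed by enzymes with a muscle gene and another gene used by most other cells, and the pentose phosphate pathway leads glucose 6-phosphate aside to make NADPH and ribose. Levels are given as CPM, the counts of a gene scaled to a common library size with TMM factors from edgeR, and levels of different genes are compared only as CPM per kilobase of the canonical transcript.

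Total counts ranged from 17887495 to 26234505 per mouse. The TMM factors lay between 0.829 and 0.886 in sham and between 1.06 and 1.24 in MOV libraries. Without them the median log2 difference of all genes moved to 0.36 in vehicle and 0.39 in D + Q mice, and the changes below are relative to that median. Myh4, the myosin of the fastest fibers, was high in every library (16381 to 67496 CPM), as the plantaris is a fast muscle. Vehicle sham replicate 2 stood apart, far above the rest of its group in 6 of the genes described here, and vehicle sham replicate 3 had 358 CPM of Myh7, the slow fiber myosin, where the group median was 62.7.

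In sham muscle the 38 genes together took 4.64% ± 0.175 (SD, n = 5) of all counts in vehicle and 4.54% ± 0.175 (SD, n = 5) in D + Q mice. Per kilobase the aldolase gene Aldoa was the highest of them, at 9813 CPM per kilobase in vehicle sham muscle, followed by the muscle enolase Eno3 (2951), Gapdh (2597) and the muscle glycogen phosphorylase Pygm (2498). At the other end of the same scale stood the pentose phosphate entry enzyme G6pdx (0.502) and the brain aldolase Aldoc (0.145). After overload the 38 genes took 3.76% ± 0.0785 (SD, n = 5) of counts in vehicle MOV and 3.68% ± 0.172 (SD, n = 5) in D + Q MOV muscle. The highest MOV share, 3.9%, lay below the lowest sham share, 4.37%.

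Most of the pathway was lower in overloaded than in sham muscle. Of the 37 genes with enough counts to test (Aldoc was below the count minimum), 26 fell and 9 rose with MOV in vehicle mice (edgeR quasi-likelihood test, adjusted p below 0.05), and the same 26 and 9 did so in D + Q mice, which are different animals. Over all genes tested, 29.8% fell and 30.7% rose in vehicle mice, and 30.9% fell and 34.4% rose in D + Q mice. The median log2 fold change of the 37 genes was -0.60 in vehicle and -0.57 in D + Q mice, against -0.015 and 0.023 over all genes. In a whole muscle, fewer cells of a type and less RNA per cell cannot be told apart. The genes that rose were Slc2a1, Hk1, Pfkl, Pfkp, Pgam1, Eno1, G6pdx, Tkt and Taldo1. The remaining genes, Ugp2 and Gbe1, did not pass the test in either treatment. Where a pair of values follows, it is for vehicle and then D + Q mice, and positions are in GRCm39 unless another build is named.

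**Figure D1:**
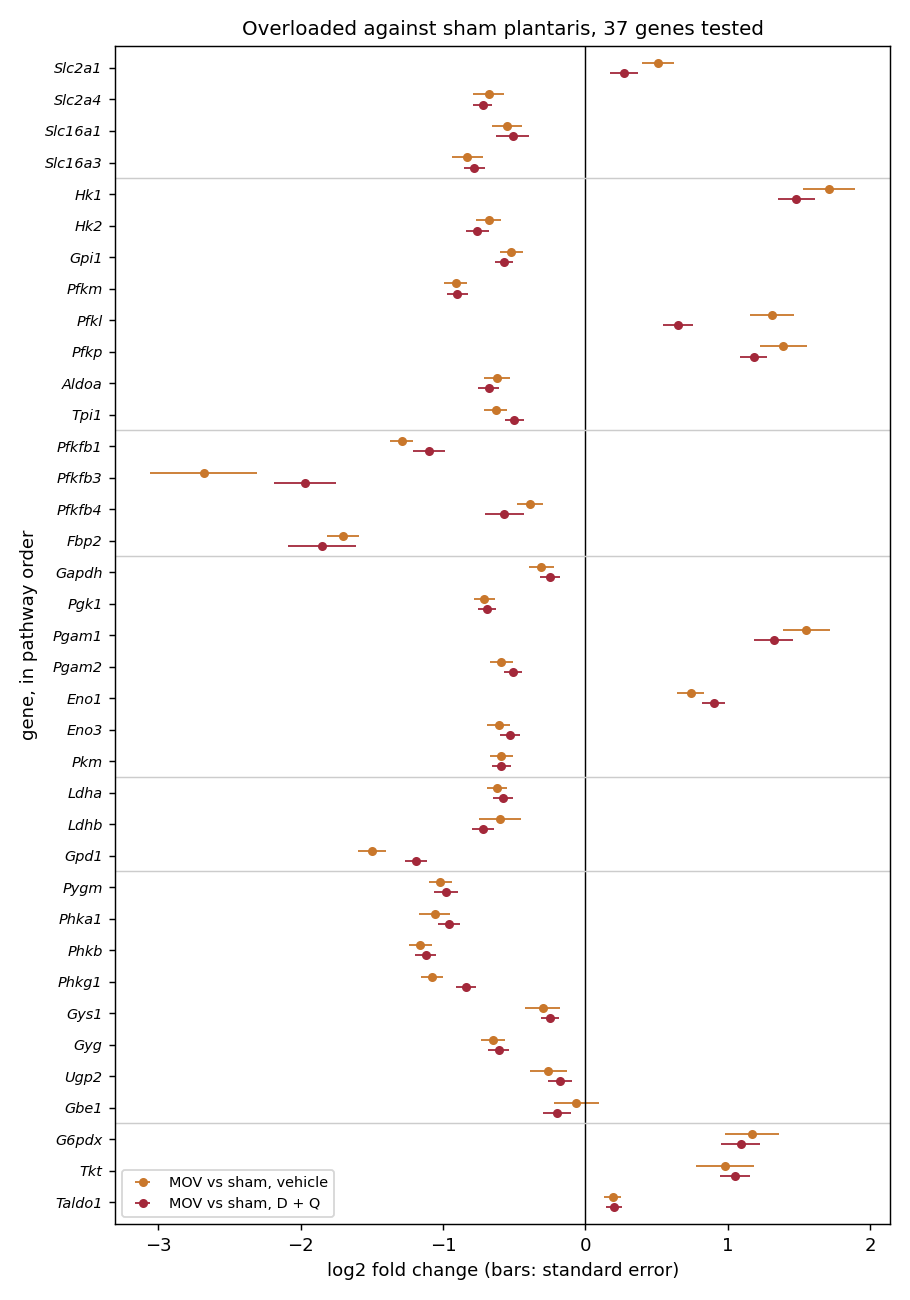
Log2 fold change between MOV and sham muscle (x axis, bars are standard errors) of the 37 tested genes in pathway order (y axis), in vehicle mice (orange) and D + Q mice (red); grey lines divide transport, preparatory glycolysis, fructose bisphosphate control, late glycolysis, dehydrogenases, glycogen and pentose phosphate genes. In both treatments most points lie left of 0, Pfkfb3 lies farthest left (-2.68 and -1.97), and 9 genes lie to the right.

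Without TMM scaling, with total counts only, the direction of 4 small differences turned positive in both treatments, namely those of Gapdh, Gys1, Ugp2 and Gbe1. That setting called 9 genes higher and 21 lower in vehicle mice, and 10 higher and 22 lower in D + Q mice. Over all genes, 84.1% of calls in vehicle and 83.5% in D + Q mice were then higher, in place of 50.8% and 52.6%. The median of the 37 genes lay below that of all genes by nearly the same distance in either scaling, -0.58 with TMM and -0.59 with total counts in vehicle mice. A change of scaling moves all genes by about the same amount, so this distance could hardly have changed and does not test the scaling.

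Other cell types moved with overload. Of the fast fiber markers, 9 of 12 fell in each treatment, and their summed level was 152093 to 182652 CPM in sham and 81833 to 106703 in MOV muscle. Myh4 fell by 1.56 on the log2 scale in vehicle and by 1.51 in D + Q mice, whereas the type 2a myosin Myh2 rose by 0.74 and 0.50. Myh1, the type 2x myosin, did not pass the test (0.33 and 0.22). Myh7 rose in D + Q mice (3.14), and in vehicle mice its difference of 1.74 did not pass. Of the slow fiber markers 6 of 10 rose and 1 fell in vehicle mice, and 9 rose in D + Q mice, with summed levels of 299 to 1136 CPM in sham and 774 to 1927 in MOV muscle. All 9 macrophage markers rose in both treatments, from a summed 57 to 162 CPM in sham to 303 to 907 in MOV muscle. All 8 fibroblast markers rose as well, from 474 to 1251 CPM to 6028 to 14789 CPM. In each treatment 8 of 10 endothelial markers rose (186 to 272 CPM in sham, 280 to 363 in MOV), as did 7 of 8 markers of satellite cells and immature fibers (43.4 to 62.4 in sham, 309 to 760 in MOV). Only 6 of these 8 satellite cell and immature fiber markers reached the count minimum among the sham mice alone. None of 5 tested red cell markers changed in either treatment, of 4 adipocyte markers 1 rose and 3 fell in vehicle and 1 rose and 1 fell in D + Q mice, and of 5 Schwann cell markers 2 rose in each and 1 fell in D + Q mice. No marker of these lists was at 0 in every mouse. Their part in the differences of the metabolic genes was not tested.

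Glucose enters the fiber through Slc2a4 (GLUT4), the insulin- and contraction-responsive carrier, and through Slc2a1 (GLUT1), the carrier of most other cells. Slc2a4 fell by 0.68 on the log2 scale in vehicle and by 0.72 in D + Q mice. Slc2a1 rose by 0.51 and 0.27, from a mean of 10.8 to 15.3 CPM in vehicle and from 10.5 to 12.3 CPM in D + Q mice. Its D + Q groups overlapped, with sham mice between 9.85 and 11.8 and MOV mice between 10.7 and 14 CPM. Both lactate carriers fell, Slc16a3 (MCT4), which exports lactate from fast fibers, by 0.83 and 0.78, and Slc16a1 (MCT1) by 0.55 and 0.51.

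Hexokinase traps glucose in the cell, and its muscle gene Hk2 fell while Hk1 rose. Hk1 (chromosome 10, 62104621 to 62215687) stood at 4.19, 3.85, 6.25, 6.46 and 6.3 CPM in the 5 vehicle sham mice and at 13.2, 14.2, 19.5, 22.7 and 17.9 CPM in the vehicle MOV mice. In D + Q mice it was 6.67, 6.88, 7.8, 4.9 and 8.86 CPM in sham and 20.3, 15.5, 20.3, 17.8 and 20.6 CPM in MOV muscle. Every overloaded muscle lay above every sham muscle. The log2 fold change was 1.71 ± 0.184 (SE, adjusted p = 2.8e-06) in vehicle and 1.48 ± 0.13 (SE, adjusted p = 2.89e-08) in D + Q mice, the largest rise of the 37 genes in both. Hk2 fell by 0.68 and 0.76 on the log2 scale, from 562 to 348 CPM in vehicle and from 549 to 313 CPM in D + Q mice.

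Phosphofructokinase commits fructose 6-phosphate to glycolysis. The muscle subunit gene Pfkm fell by 0.91 and 0.90, from 4448 to 2343 CPM in vehicle and from 4347 to 2257 CPM in D + Q mice, and the liver and platelet subunit genes rose. Pfkp (chromosome 13, 6629798 to 6698970) was 5.2, 5.75, 4.64, 6.7 and 5.71 CPM in vehicle sham mice and 14.8, 9.38, 15.6, 19.2 and 13.5 CPM in vehicle MOV mice. With D + Q it was 7.71, 8.52, 8.73, 6.75 and 8.2 CPM in sham and 16.5, 19.2, 18.7, 15.3 and 17.7 CPM in MOV mice. The sham and MOV ranges did not overlap in either treatment (log2 fold change 1.39 ± 0.168 SE, adjusted p = 5.38e-06, and 1.18 ± 0.0967 SE, adjusted p = 9.33e-09). Pfkl (chromosome 10, 77818084 to 77845922) gave 6.21, 9.67, 4.77, 5.53 and 6.89 CPM in vehicle sham against 17.5, 17, 13.8, 16.4 and 16.6 CPM in vehicle MOV mice. In D + Q mice it gave 9.6, 10.5, 9.66, 7.33 and 8.81 CPM in sham against 14.3, 13.2, 13.6, 12.6 and 15.7 CPM in MOV mice. The groups were again separate, and the rise was 1.31 ± 0.154 (SE, adjusted p = 4.01e-06) in vehicle and 0.65 ± 0.103 (SE, adjusted p = 2.55e-05) in D + Q mice. Of the other early enzymes, Gpi1, Aldoa and Tpi1 fell by 0.50 to 0.68 on the log2 scale across the treatments. The second Aldoa row, at 6.67 to 21.8 CPM, fell by 1.07 and 0.79.

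**Figure D2:**
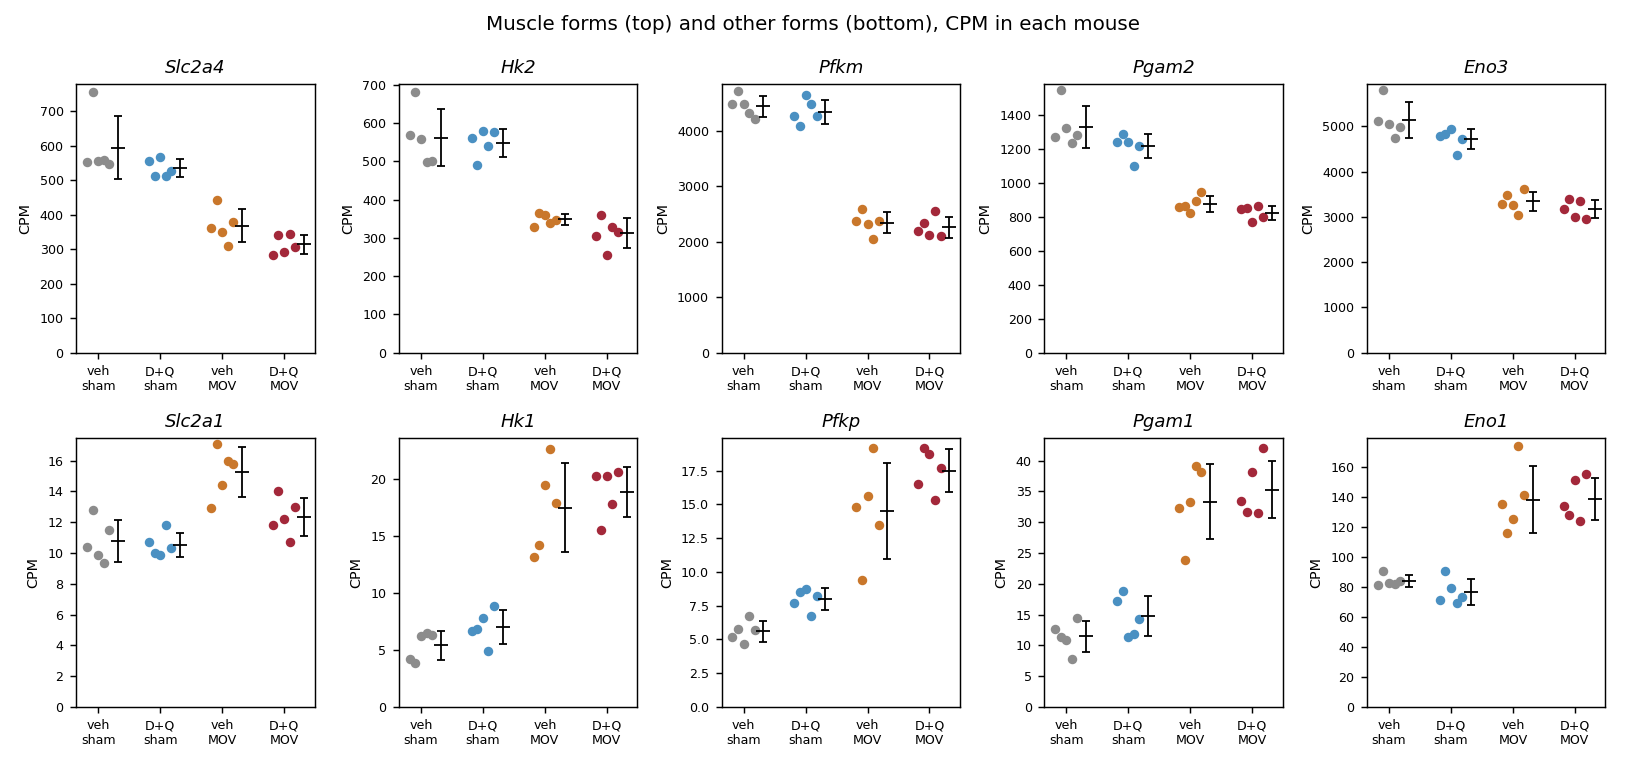
CPM of 5 muscle forms (top row) and 5 other forms (bottom row) in each of the 20 mice; points are mice, and the bar beside each group is the mean with its SD (n = 5). The muscle forms are lower and the other forms higher in MOV than in sham muscle, as in Pgam1, where sham mice lie between 7.74 and 18.8 CPM and MOV mice between 23.8 and 42.

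Among the late enzymes, which harvest ATP, Pgk1 fell by 0.71 and 0.69 and the pyruvate kinase gene Pkm by 0.59 in each treatment. Gapdh, often used as a reference gene, fell by 0.31 and 0.25 with TMM scaling and lay higher by 0.06 and 0.11, short of the threshold, with total counts only. Phosphoglycerate mutase is made from Pgam2 in mature muscle and from Pgam1 elsewhere. Pgam1 (chromosome 19, 41900341 to 41907104) was 12.7, 11.4, 10.8, 7.74 and 14.5 CPM in vehicle sham and 32.3, 23.8, 33.3, 39.2 and 38.2 CPM in vehicle MOV mice. In D + Q mice Pgam1 was 17.2, 18.8, 11.4, 11.9 and 14.2 CPM in sham and 33.4, 31.6, 38.1, 31.5 and 42 CPM in MOV muscle. No sham mouse reached the level of an MOV mouse (log2 fold change 1.55 ± 0.166 SE, adjusted p = 5.03e-06, and 1.32 ± 0.136 SE, adjusted p = 1.83e-06). Pgam2 fell by 0.59 and 0.51. For enolase, the muscle gene Eno3 fell by 0.61 and 0.53 and the broadly used Eno1 rose by 0.74 and 0.90, from 84 to 138 CPM in vehicle and from 76.5 to 138 CPM in D + Q mice.

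At the dehydrogenases that regenerate NAD+, Ldha, the lactate dehydrogenase subunit of fast fibers, fell by 0.62 and 0.58, and Ldhb, that of oxidative tissue, by 0.60 and 0.72. Gpd1, which turns dihydroxyacetone phosphate into glycerol 3-phosphate, fell by more. Gpd1 (chromosome 15, 99615396 to 99622893) measured 725, 616, 696, 665 and 685 CPM in vehicle sham and 273, 229, 246, 259 and 183 CPM in vehicle MOV mice. With D + Q the sham mice had 606, 671, 695, 609 and 688 CPM and the MOV mice 265, 296, 261, 316 and 247 CPM. The highest MOV mouse was thus far below the lowest sham mouse (log2 fold change -1.50 ± 0.1 SE, adjusted p = 2.04e-08, and -1.19 ± 0.0739 SE, adjusted p = 3.58e-10). The mitochondrial partner of its shuttle, Gpd2, which is not among the 38 genes, fell by 1.39 and 1.19.

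The level of fructose 2,6-bisphosphate, the strongest activator of phosphofructokinase, is set by the bifunctional enzymes of the Pfkfb family. Pfkfb1, Pfkfb3 and Pfkfb4 fell, as did Fbp2, the muscle fructose bisphosphatase that runs the reverse step. Pfkfb2, which is outside the 38 genes and is named after its values were seen, did not pass the test, at 16.9 CPM in sham and 16.7 in MOV muscle of vehicle mice and 18 and 15.5 CPM with D + Q (log2 fold change -0.0038 ± 0.141 and -0.17 ± 0.105 SE, adjusted p = 0.983 and 0.18 in edgeR). Pfkfb3 (chromosome 2, 11476244 to 11558888) had the largest fall of the 37 genes in both treatments. It was 278, 137, 293, 474 and 368 CPM in vehicle sham mice and 57.4, 33.3, 49.2, 69.9 and 28.7 CPM in vehicle MOV mice. D + Q sham mice had 261, 373, 390, 302 and 336 CPM and D + Q MOV mice 121, 62.4, 84.1, 86.5 and 56.3 CPM. The groups did not overlap, although within groups Pfkfb3 was among the most variable of the genes (coefficient of variation 40% in vehicle sham and 35.6% in vehicle MOV mice). Its log2 fold change was -2.68 ± 0.374 (SE, adjusted p = 0.000215) in vehicle and -1.97 ± 0.22 (SE, adjusted p = 3.78e-05) in D + Q mice.

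Fbp2 (chromosome 13, 62984691 to 63006552) was 39.7, 30.3, 38.5, 33.7 and 34 CPM in vehicle sham and 13.5, 10.3, 8.61, 10.6 and 10.4 CPM in vehicle MOV mice. In D + Q mice it ranged more widely in sham muscle, at 30, 43, 49, 71.6 and 43.3 CPM, and was 15.4, 14.6, 12.2, 12.1 and 9.02 CPM in MOV muscle. Sham and MOV values were separate in both treatments (log2 fold change -1.70 ± 0.113 SE, adjusted p = 1.87e-08, and -1.85 ± 0.241 SE, adjusted p = 0.000103). Pfkfb1 (chromosome X, 149371225 to 149426874) was 53.7, 59.7, 48.9, 48 and 46.9 CPM in vehicle sham and 21.7, 22.1, 19.7, 19.1 and 21.4 CPM in vehicle MOV mice. With D + Q, Pfkfb1 was 44.2, 43.4, 36, 41.6 and 40.9 CPM in sham and 22.7, 20.6, 16.2, 19.4 and 13.9 CPM in MOV mice. Again all MOV mice were below all sham mice (log2 fold change -1.29 ± 0.0806 SE, adjusted p = 1.08e-08, and -1.10 ± 0.112 SE, adjusted p = 6.87e-07). Pfkfb4 fell by 0.39 and 0.57.

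**Figure D3:**
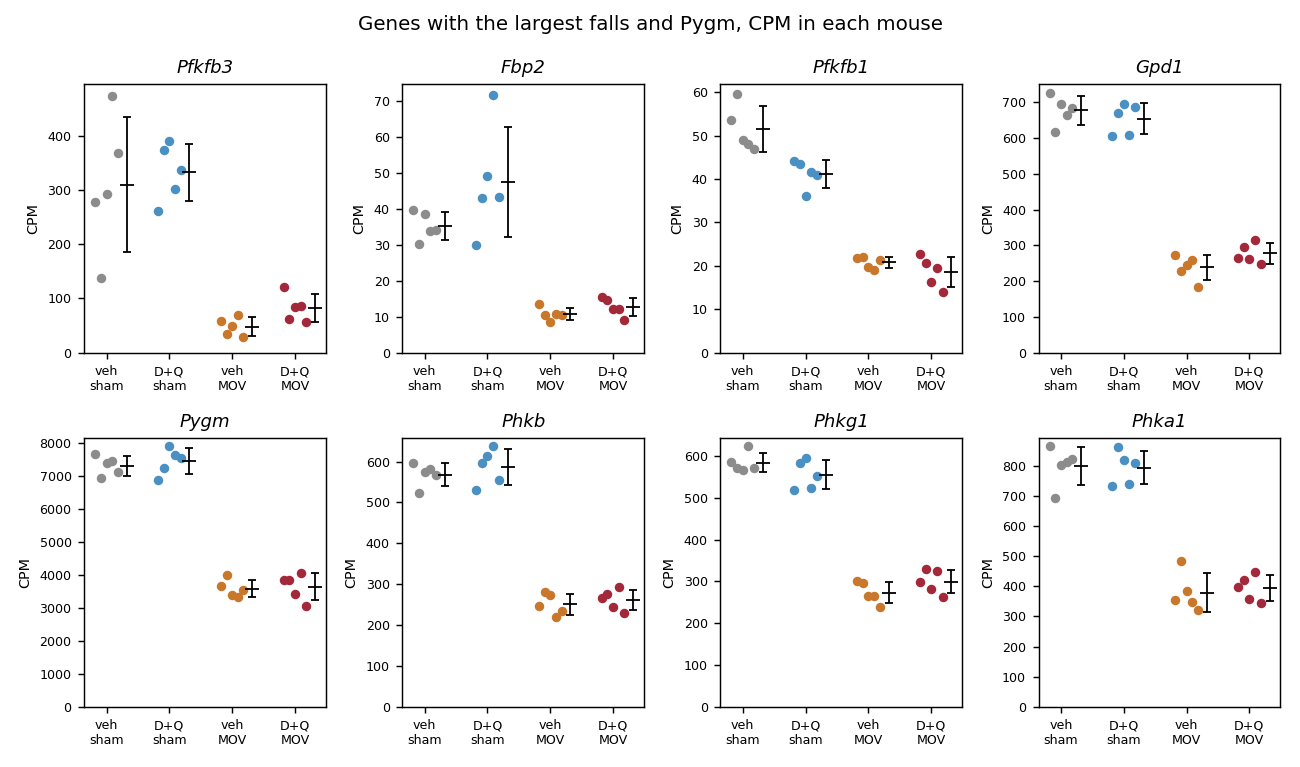
CPM in each of the 20 mice for the 7 genes with the largest falls in vehicle mice and for Pygm; points are mice, and the bar beside each group is the mean with its SD (n = 5). In each panel the MOV mice of either treatment lie below the sham mice, by the largest fold change in Pfkfb3 and by similar fold changes in Pygm, Phkb, Phkg1 and Phka1.

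The 4 genes of glycogen breakdown all fell, by 0.84 to 1.16 on the log2 scale, namely Pygm and the phosphorylase kinase subunit genes Phka1 (regulatory alpha), Phkb (regulatory beta) and Phkg1 (catalytic gamma). Of the 4 synthesis genes, Gyg (glycogenin, the primer) fell by 0.65 and 0.61 and Gys1 (muscle glycogen synthase) by 0.30 and 0.25 (positive in both treatments with total counts only), while Ugp2 (UDP-glucose supply; -0.26 and -0.18) and Gbe1 (branching enzyme; -0.064 and -0.20) did not pass the test. The fall of Gys1 in vehicle mice was near the threshold (adjusted p = 0.0461) and was lost with RLE size factors (adjusted p = 0.0557) and with no filter on low counts (adjusted p = 0.0502), and without vehicle sham replicate 2 the difference was -0.205 (adjusted p = 0.129 in edgeR). Without that mouse the Ugp2 difference in vehicle mice was -0.12. In D + Q mice Ugp2 was -0.12 without D + Q MOV replicate 3, and Gbe1 was -0.10 without D + Q sham replicate 1. Ugp2 was near the threshold, and passed it as lower in vehicle mice with all 20 mice in one fit (adjusted p = 0.0462 in edgeR) and in D + Q mice with DESeq2 (adjusted p = 0.0371). Gbe1 passed it as lower in D + Q mice without D + Q sham replicate 3 (-0.243, adjusted p = 0.0435 in edgeR).

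Pygm fell from 7301 ± 295 to 3574 ± 261 CPM (SD, n = 5 each) in vehicle and from 7435 ± 394 to 3639 ± 405 CPM (SD, n = 5 each) in D + Q mice. Phkb (chromosome 8) was 596, 524, 574, 581 and 566 CPM in vehicle sham and 246, 282, 273, 220 and 235 CPM in vehicle MOV mice. With D + Q, Phkb was 530, 596, 613, 637 and 554 CPM in sham and 266, 275, 244, 292 and 230 CPM in MOV mice. Its groups were well apart (log2 fold change -1.16 ± 0.0808 SE, adjusted p = 2.74e-08, and -1.12 ± 0.074 SE, adjusted p = 7.63e-10). Phkg1 (chromosome 5, 129891125 to 129927390) was 586, 571, 567, 624 and 572 CPM in vehicle sham and 300, 296, 266, 265 and 239 CPM in vehicle MOV mice. D + Q sham mice had 518, 583, 596, 524 and 553 CPM of Phkg1 and D + Q MOV mice 299, 330, 282, 324 and 263 CPM. These ranges did not meet either (log2 fold change -1.08 ± 0.0776 SE, adjusted p = 3.66e-08, and -0.84 ± 0.0709 SE, adjusted p = 1.27e-08). Phka1 (chromosome X) was 865, 694, 803, 811 and 824 CPM in vehicle sham and 355, 485, 385, 349 and 321 CPM in vehicle MOV mice. With D + Q, Phka1 was 733, 863, 819, 741 and 810 CPM in sham and 397, 421, 358, 447 and 346 CPM in MOV mice. The fall of Phka1 (log2 fold change -1.06 ± 0.106 SE, adjusted p = 7.8e-07, and -0.96 ± 0.0768 SE, adjusted p = 6.9e-09) was close to that of the other subunits.

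The 3 pentose phosphate genes rose. G6pdx (chromosome X, 73449857 to 73472819), the enzyme that opens the oxidative branch and makes NADPH, was 3.08, 2.24, 2.13, 3.55 and 3.83 CPM in vehicle sham and 7.22, 5.08, 7.39, 7.56 and 5.91 CPM in vehicle MOV mice. In D + Q mice G6pdx was 3.41, 3.9, 3.37, 2.91 and 4.07 CPM in sham and 8.44, 6.84, 6.88, 7.63 and 6.55 CPM in MOV mice. Low as these levels were, sham and MOV mice did not overlap (log2 fold change 1.17 ± 0.19 SE, adjusted p = 8.09e-05, and 1.09 ± 0.136 SE, adjusted p = 1.54e-06). Tkt (transketolase), of the sugar-exchanging branch, rose by 0.98 and 1.05, from 8.01 to 15.6 CPM in vehicle and from 8.81 to 17.7 CPM in D + Q mice. Taldo1 (transaldolase) rose by only 0.19 and 0.20, from 63.3 to 71.8 and from 59.7 to 66.4 CPM, and its sham and MOV ranges overlapped in both treatments.

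The opposite movement of muscle and other forms was followed within each mouse as the log2 ratio of the CPM of the 2 genes, which does not depend on library scaling, and was not tested, since the genes' own tests are those above. Pygb, the brain glycogen phosphorylase, is outside the 38 genes and rose from 4.97 to 16.2 CPM in vehicle mice. The Pygb over Pygm log2 ratio was higher in MOV than in sham by 2.73 in vehicle and 3.01 in D + Q mice, the widest shift of the 14 pairs examined. The shift was 2.38 and 2.27 for Hk1 over Hk2, 2.27 and 2.08 for Pfkp over Pfkm, 2.26 and 1.55 for Pfkl over Pfkm, and 2.15 and 1.84 for Pgam1 over Pgam2. It was smaller for Eno1 over Eno3 (1.33 and 1.43) and Slc2a1 over Slc2a4 (1.19 and 1.00). For each of these 7 pairs every MOV mouse had a higher ratio than every sham mouse of its treatment. The same held for Phka2 over Phka1 (1.28 and 1.21) and Phkg2 over Phkg1 (1.33 and 1.30), where of the other forms Phkg2 rose in D + Q mice (0.45) and Phka2 passed the test in neither treatment (0.21 and 0.24). Where both genes of a pair were already separate, in opposite directions, a separate ratio follows from them and is no further evidence.

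**Figure D4:**
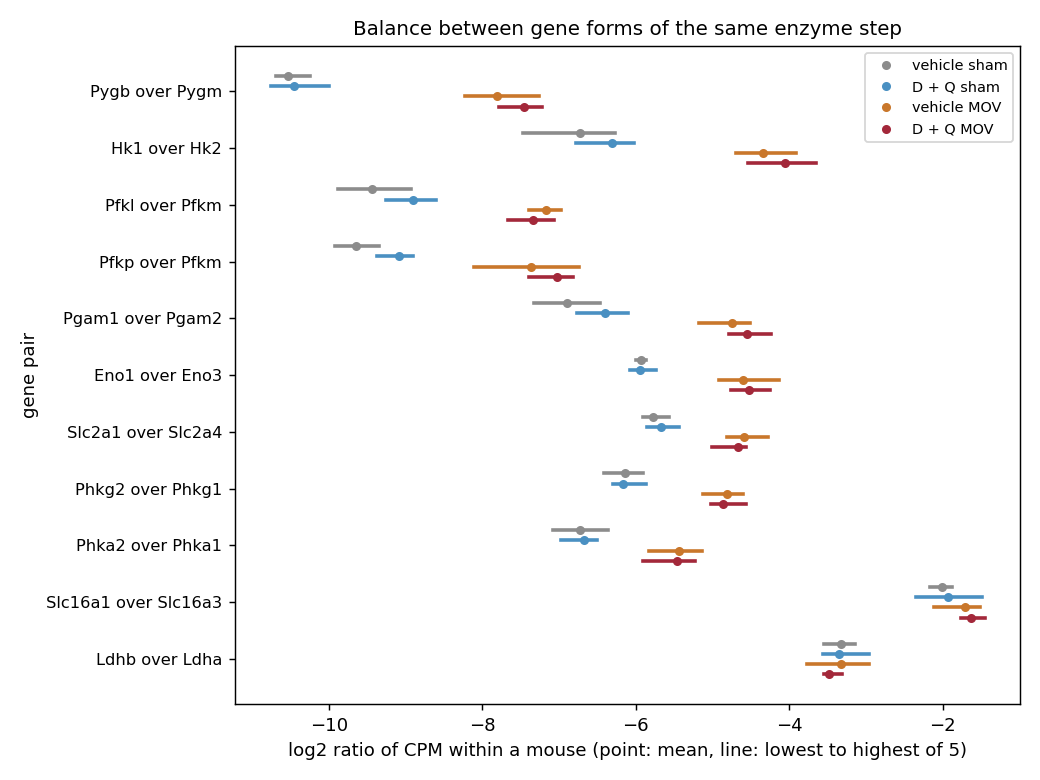
Log2 ratio of CPM within a mouse (x axis) for 11 gene pairs of the same step (y axis); points are group means and lines run from the lowest to the highest of 5 mice. MOV lines lie right of the sham lines for the upper 9 pairs, and overlap them for Slc16a1 over Slc16a3 and Ldhb over Ldha.

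Not every pair moved. The Ldhb over Ldha ratio differed between MOV and sham by 0.00 in vehicle and -0.13 in D + Q mice, and Slc16a1 over Slc16a3 by 0.30 and 0.29, with overlapping groups. Aldoc over Aldoa also overlapped, at counts of Aldoc too low to test. Among the Pfkfb genes, Pfkfb3 lost against Pfkfb1, by -1.36 in vehicle mice, where the ranges overlapped, and by -0.89 in D + Q mice. Pfkfb4 over Pfkfb1 was higher in MOV mice by 0.89 in vehicle and, with overlap, by 0.54 in D + Q mice.

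Outside the Pfkfb family the muscle forms remained the main ones per kilobase. Pfkfb3 made up a median of 66.5% of the Pfkfb3 and Pfkfb1 sum in vehicle sham and 45.3% in vehicle MOV mice, and 73.2% and 59.6% in D + Q mice. Hk1 made up a median of 2% of the Hk1 and Hk2 sum in vehicle sham and 8.63% in vehicle MOV mice, and 2.39% and 10.6% in D + Q mice. For Pgam1 the medians were 0.394% and 1.91% in vehicle mice, and for Eno1 they were 1.22% and 2.88%. The summed level of each step was accordingly lower in overloaded muscle. For hexokinase it was 73.4 ± 9.26 CPM per kilobase (SD, n = 5) in vehicle sham and 48.7 ± 2.09 (SD, n = 5) in vehicle MOV mice. The 3 phosphofructokinase genes together went from 1116 ± 47.5 to 594 ± 46.5 CPM per kilobase (SD, n = 5 each), and the 2 phosphoglycerate mutase genes from 1537 ± 143 to 1025 ± 55.8 (SD, n = 5 each). In none of these 3 sums did a vehicle MOV mouse reach the lowest vehicle sham mouse.

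The 250 bases before the annotated start are given for 2 pairs in which the muscle gene fell and the other gene rose, to show how their letters differ (RefSeq, assembly GRCm38.p6, 5′ to 3′ on the gene's strand). These pairs were picked because each gene has 1 listed start. Capitals mark the E-box CAGCTG, a motif of myogenic factors, and the letters ACGTG, the core of the hypoxia response element, which reads CACGT on the other strand.
Pgam2 (chr11:5803797-5804046, minus strand): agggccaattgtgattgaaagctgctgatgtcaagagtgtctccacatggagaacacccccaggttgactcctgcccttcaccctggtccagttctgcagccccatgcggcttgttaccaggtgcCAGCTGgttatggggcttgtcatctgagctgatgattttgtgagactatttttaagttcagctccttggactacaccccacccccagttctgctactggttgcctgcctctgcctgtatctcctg
Pgam1 (chr19:41911621-41911870, plus strand): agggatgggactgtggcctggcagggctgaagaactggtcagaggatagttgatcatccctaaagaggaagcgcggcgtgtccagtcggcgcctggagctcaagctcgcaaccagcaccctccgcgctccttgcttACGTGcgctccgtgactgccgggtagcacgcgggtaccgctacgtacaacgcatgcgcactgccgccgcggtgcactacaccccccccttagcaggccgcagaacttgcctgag
Pygm (chr19:6384158-6384407, plus strand): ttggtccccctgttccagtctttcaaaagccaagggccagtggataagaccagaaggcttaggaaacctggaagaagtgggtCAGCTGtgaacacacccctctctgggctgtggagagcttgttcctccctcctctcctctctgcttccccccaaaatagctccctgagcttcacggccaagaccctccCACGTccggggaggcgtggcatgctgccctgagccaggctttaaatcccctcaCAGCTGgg
Pygb (chr2:150786546-150786795, plus strand): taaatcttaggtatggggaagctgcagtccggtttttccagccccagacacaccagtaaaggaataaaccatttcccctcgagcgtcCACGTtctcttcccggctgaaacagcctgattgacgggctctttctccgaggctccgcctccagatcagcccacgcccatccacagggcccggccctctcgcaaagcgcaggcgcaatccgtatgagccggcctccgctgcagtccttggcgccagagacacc

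Pgam2 has 1 CG pair in this window and an E-box at -125 from the start, and Pgam1 has 22 CG pairs and an ACGTG at -114. Pygm has 4 CG pairs, E-boxes at -8 and farther upstream and the ACGTG core at -61. Pygb has 17 CG pairs and the core at -163. The hexokinase pair differed from these pairs, with 25 CG pairs for Hk2, which fell, and 14 and 1 at the 2 starts of Hk1, which rose. Promoters were found for 36 of the 38 genes (52 starts), all but Slc2a4 and Gpd1. The 9 genes that rose had a median of 14.5 CG pairs over their 12 starts and the 24 genes that fell 13.0 over 35 starts, beside 6 over all 32851 promoters. At every start of Eno3, Fbp2, Pgam2, Phkg1 and Pygm there were 5 CG pairs or fewer, which held for none of the 9 genes that rose. With a median of 6 over all promoters, numbers this low are not particular to genes that fell. The share of all promoters with 5 or fewer was not counted. CAGCTG, read on both strands, was found in 8 of the 24 genes that fell and in 0 of the 9 that rose, and in 13% of all promoters. ACGTG was found in 11 of the 24 and 2 of the 9, and in 16.6% of all promoters. The GC box, the TATA box and the MEF2 motif were searched for as well. The GC box was found in 16 of the 24 and 6 of the 9, and in 32.7% of all promoters. For the TATA box it was 1 of the 24 and 0 of the 9 (12.4%), and for MEF2 2 and 0 (3.2%). Whether any motif differed between genes that fell and rose was not tested. These counts per gene take in all its starts, whereas the shares are per promoter, and a match of letters is not a bound site.

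Genes of the same pathways outside the 38 moved in both directions, by lists drawn up with earlier results of these data known. Of 20 tested other glycolysis genes, 5 rose and 8 fell in vehicle mice and 7 rose and 9 fell in D + Q mice. For this list and those that follow, the shares over all tested genes were 30.7% risen and 29.8% fallen in vehicle mice. In D + Q mice these shares were 34.4% and 30.9%. The hexokinase of white blood cells, Hk3, rose by 1.68 and 2.35, and the neuronal enolase Eno2 by 2.06 and 2.72, each from under 1 CPM on average. Genes this low in sham muscle can reach the count minimum through the MOV mice alone, so a rise was the likelier outcome. The galactose kinase genes Galk1 (1.49 and 1.54) and Galk2 (1.56 and 1.70) rose as well. Bpgm, which makes 2,3-bisphosphoglycerate, fell by 1.06 and 1.04, and the high-affinity glucose carrier Slc2a3 by 1.66 and 1.55.

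Of 21 tested other glycogen genes, 6 rose and 10 fell in each treatment. Phosphoglucomutase Pgm1 fell by 1.18 and 1.07, and Ppp1r3a, the muscle subunit that tethers protein phosphatase 1 to glycogen, by 1.41 and 1.26. The liver phosphorylase Pygl rose by 1.57 and 1.50, Pgm2, which acts on phosphopentoses, by 1.71 and 2.14, and Pygb by 1.72 and 2.01. Of 10 tested other pentose phosphate genes 5 rose and 3 fell in vehicle and 4 rose and 3 fell in D + Q mice, and Prps2, which makes phosphoribosyl pyrophosphate, rose by 1.06 and 1.63.

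Pyruvate's entry to the mitochondria was lower on most genes, with 10 of 14 fallen and 1 risen in vehicle mice and 13 fallen and 1 risen in D + Q mice. The gene that rose was Pdk3, an inhibitory kinase of pyruvate dehydrogenase, by 2.72 and 3.20 from a mean of 0.445 and 0.477 CPM. Pdpr, a subunit of the phosphatase that reverses this inhibition, fell by 1.24 and 1.12. At its sham level Pdk3 could reach the count minimum through the MOV mice alone, so a rise was its likelier outcome. Among the sham mice alone 13 of the 14 genes reached that minimum. Of 26 transcription regulators of these pathways, 4 rose and 14 fell in vehicle and 5 rose and 16 fell in D + Q mice. Hif1a, which drives glycolytic genes at low oxygen, rose by 1.53 and 1.67, from 22.1 to 63.1 CPM in vehicle and from 23.9 to 73.3 CPM in D + Q mice. Nr4a2, an orphan nuclear receptor, rose by 2.96 and 2.37.

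D + Q was then compared with vehicle. In overloaded muscle, none of the 37 tested genes passed the test (edgeR quasi-likelihood test, adjusted p below 0.05), nor did any of all 15238 tested genes (0%). Over all genes DESeq2 called 6 higher and 4 lower. The study reported far more differentially expressed genes in this comparison, also with DESeq2, and the reason for the gap was not tested. At an unadjusted p under 0.05 there were 5 of the 37, 1 higher and 4 lower, beside 8.79% of all genes. Leaving out each mouse in turn gave 2 (without vehicle MOV replicate 2, beside 6.23% of all genes) to 11 of the 37 (without vehicle MOV replicate 4, beside 17.4% of all genes). DESeq2 and limma-voom also called 0 of the 37. The lowest adjusted p was 0.523. The 5 genes were Slc2a1 (log2 fold change -0.31 ± 0.0989 SE), Pfkl (-0.23 ± 0.0897), Pfkfb3 (0.78 ± 0.281), Gbe1 (-0.39 ± 0.15) and Slc2a4 (-0.24 ± 0.0999), with adjusted p between 0.523 and 0.547 in the same test. For Pfkfb3 the D + Q MOV mice lay between 56.3 and 121 CPM and the vehicle MOV mice between 28.7 and 69.9 CPM. The groups overlapped in this gene, as they did in Slc2a1 (10.7 to 14 against 12.9 to 17.1 CPM). Of the fibroblast markers 5 of 8 were at an unadjusted p under 0.05 here, with summed levels of 10697 to 14789 CPM in D + Q MOV and 6028 to 11991 CPM in vehicle MOV mice, and their part in these differences was not tested. No fibroblast marker passed at an adjusted p under 0.05. Of the other markers, 1 of 9 macrophage, 1 of 8 satellite cell and immature fiber markers and Myh2 (-0.36) had such an unadjusted p. No fast fiber, slow fiber, endothelial, red cell, adipocyte or Schwann cell marker did.

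**Figure D5:**
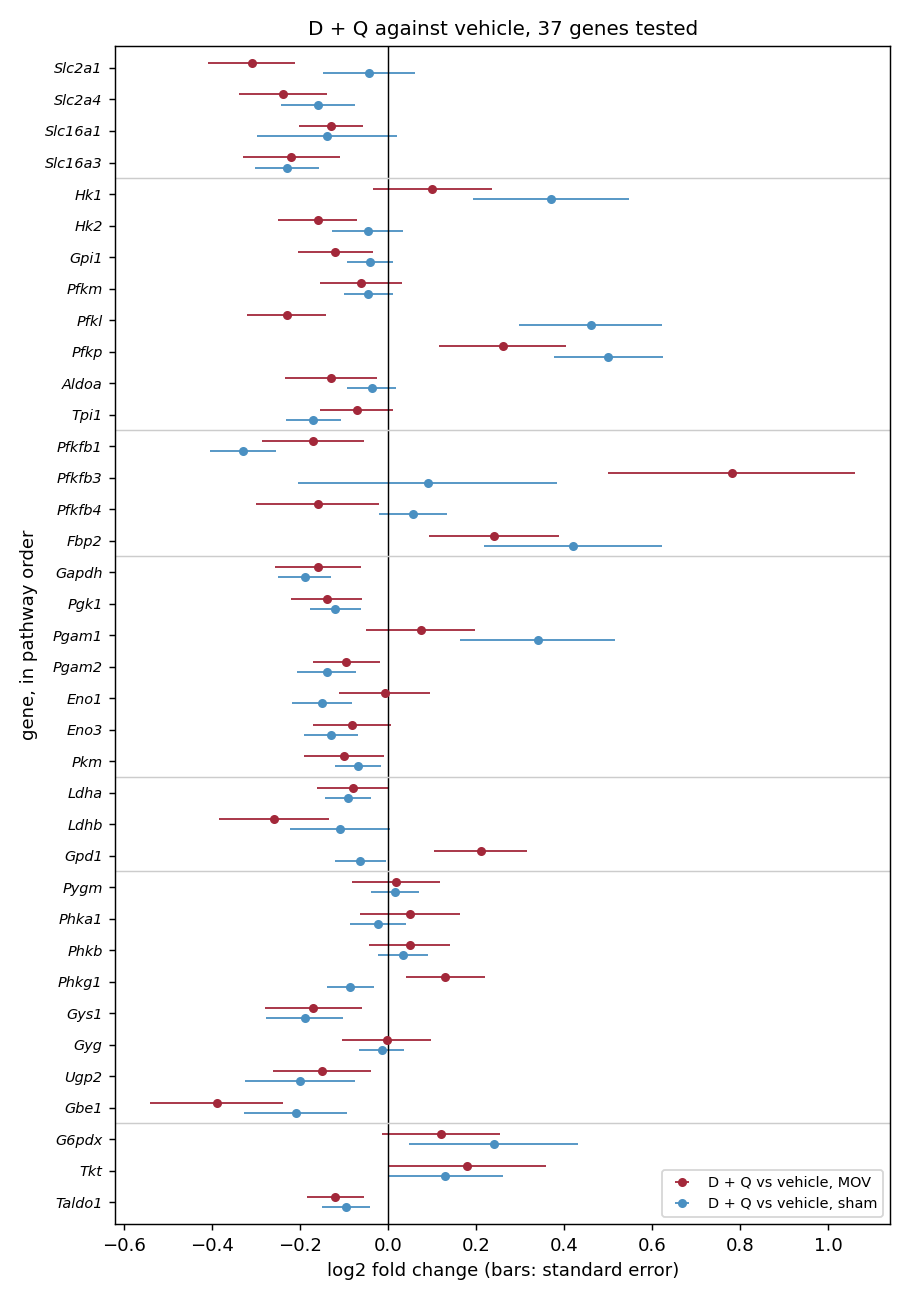
Log2 fold change of D + Q over vehicle mice (x axis, bars are standard errors) of the 37 tested genes in pathway order (y axis), in MOV (red) and sham muscle (blue). Most points lie within 0.4 of 0, and Pfkfb3 in MOV muscle lies farthest out (0.78).

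In sham muscle none of the 37 genes passed at an adjusted p under 0.05 either, beside 0.215% of all genes. At an unadjusted p under 0.05 there were 11 of the 37, 2 higher and 9 lower, beside 10.2% of all genes. Leaving out vehicle sham replicate 2, the mouse that stood apart, left 6 of the 37, beside 8.67% of all genes, and the other mice left out in turn gave 7 to 12, beside 8.29% to 11% of all genes. The lowest adjusted p was 0.083, for Pfkfb1 (log2 fold change -0.33 ± 0.0748 SE), with D + Q sham mice between 36 and 44.2 CPM and vehicle sham mice between 46.9 and 59.7 CPM. The next were Pfkp (0.50 ± 0.124 SE, adjusted p = 0.133), Slc16a3 (-0.23 ± 0.072, adjusted p = 0.257, and -0.14 without vehicle sham replicate 2), Gapdh (-0.19 ± 0.06, adjusted p = 0.263) and Pfkl (0.46 ± 0.162, adjusted p = 0.338). The D + Q and vehicle sham ranges overlapped in Pfkl and not in the other 4 genes, and they overlapped in all the rest of the 37. The named genes were picked for the lowest p, which favors separate ranges, so the separation is no further evidence of a difference. The share of all genes with separate ranges is not given here. DESeq2 called 2 of the 37 (adjusted p = 0.0198 for Pfkfb1 and 0.0359 for Pfkp), and limma-voom called 0. Of the fibroblast markers 6 of 8 were at an unadjusted p under 0.05 in this comparison, with summed levels of 584 to 1251 CPM in D + Q sham and 474 to 705 in vehicle sham mice, and their part in these differences was not tested. No fibroblast marker passed at an adjusted p under 0.05. Of the other markers, 2 of 10 endothelial and 1 of 6 tested satellite cell and immature fiber markers had such an unadjusted p. No marker of the remaining cell type lists did.

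Whether the difference made by overload depended on treatment was tested as an interaction over all 20 mice. None of the 38 genes passed at an adjusted p under 0.05, beside 0.0127% of all genes, and 2 of them had an unadjusted p under 0.05, beside 897 of all 15700 genes. DESeq2 and limma-voom called 0 of the 38. The lowest adjusted p was 0.555, for Pfkl, whose overload difference was smaller with D + Q by 0.69 ± 0.188 (SE) on the log2 scale. For the next 4 by p, Gpd1 (0.27 ± 0.124), Phkg1 (0.21 ± 0.102), Slc2a1 (-0.27 ± 0.141) and Pfkfb3 (0.68 ± 0.425), the adjusted p lay between 0.855 and 0.887 in the same edgeR test.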

How the data were processed

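Plantaris RNA of 20 mice was sequenced. The authors aligned reads to GRCm39 with STAR 2.7.8a, quantified genes with Partek's expectation-maximization method and deposited the resulting estimated counts without normalization. The 22660 rows have row sums of 10 or more, 29.8% of values are not whole, and values were rounded. How strand was treated is not given in the sources used here. Of the 38 genes, 29 overlap another gene in the annotation, 27 of them on the opposite strand, and near-identical copies stood at 0 to 21.8 CPM, so reads may be shared among them. Genes reaching 10 counts in 5 or more of the fitted mice were tested with edgeR 4.0.16 (R 4.3.3; TMM, robust quasi-likelihood test, Benjamini-Hochberg adjustment over all genes, threshold 0.05). A fit of 2 groups used their 10 mice only, and the interaction used 20. All differences are log2 fold changes and their standard errors from this fit unless a tool is named, and a pair of values separated by "and" is for vehicle and then D + Q mice. A group mean is given with its SD. Alternatives were DESeq2 1.42.0, RLE factors, total counts, no filter, limma-voom with sample weights (limma 3.58.1), the replicate number as a block, all mice in one fit, and each mouse left out.

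The genes, lists and tests were chosen with earlier results of these data known. Values of every mouse are given for the 12 genes with the largest differences in vehicle mice. In the D + Q comparisons the 5 lowest p-values are named, and of other pathway genes those at an adjusted p under 0.05 and 1 or more on the log2 scale in both treatments. Of these, 1 gene is not reported here. Mice with the same replicate number did not vary together (correlations of their deviations -0.251 to 0.253, 3 of 20 over 0.1). No libraries of a group agreed within sampling noise (observed over counting variance at least 6.53). Gene positions are from GENCODE on GRCm39 and promoters from RefSeq on GRCm38.p6.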

Additional observations from a re-analysis of the deposited data

Results flagged for a closer look

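Each of the 38 genes was examined in each group for a mouse far from the other 4, by Dixon's criterion (gap over range above 0.71), and 9 of 152 groups of 5 mice were marked, where chance marks about 1 in 20. Of the 9, 6 were the highest value of vehicle sham replicate 2. It had 1188 CPM of Ugp2 (the others 737 to 826), 702 of Gys1 (492 to 541), 757 of Slc2a4 (548 to 559), 1546 of Pgam2 (1235 to 1324), 2381 of Tpi1 (1972 to 2069) and 394 of Slc16a3 (304 to 316). In the same mouse Pfkfb3 was the lowest of its group (137 CPM, the others 278 to 474). D + Q sham replicate 1 had 111 CPM of Gbe1 (the others 78.3 to 84) and 279 of Ldhb (199 to 215). Tkt was 24.5 CPM in vehicle MOV replicate 4 (the others 11 to 14.7).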

How the results depend on the processing

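The rises and falls with MOV kept their side of the threshold for most genes. In vehicle mice 9 genes rose under every alternative and 21 to 27 fell; in D + Q mice 8 to 10 rose and 22 to 27 fell; leaving out single mice gave 25 to 26 falls in vehicle and 26 to 27 in D + Q mice. With total counts only, the direction reversed for Ugp2 (0.11 and 0.18, the latter at an adjusted p = 0.0316 in edgeR), Gys1 (0.066 and 0.11), Gbe1 (0.30 and 0.16) and Gapdh (0.062 and 0.11), which that scaling moves by construction. Gbe1 in vehicle mice ranged from -0.16 to 0.065 when 1 mouse was left out, turning to 0.005 without vehicle sham replicate 2 and to 0.065 without vehicle MOV replicate 4. Gys1 in vehicle mice lost the threshold in 6 of the 10 fits that left out 1 mouse, those without vehicle sham replicate 1, 2 or 3 or vehicle MOV replicate 3, 4 or 5 (-0.319 to -0.205, adjusted p = 0.0624 to 0.138 in edgeR), and also with RLE factors (-0.290) and with no filter (-0.311). With total counts only, Pfkfb4 and Slc16a1 in both treatments and Ldhb in vehicle mice no longer passed, and with all 20 mice in one fit Slc2a1 in D + Q mice did not (0.23, adjusted p = 0.0502). Between D + Q and vehicle, the replicate block called 1 gene higher in MOV muscle (Pfkfb3, 0.80, adjusted p = 0.0474). The mice share only a number. In sham muscle DESeq2 called 1 gene higher and 1 lower, no filter called 1 lower, and leaving out single mice gave 0 to 1 lower (Pfkfb1, without vehicle sham replicate 5); the cause was not tested. The block changed 1 other call (Ugp2 with MOV in vehicle mice, -0.25, adjusted p = 0.0324). Ugp2 also passed as lower in vehicle mice with all 20 mice in one fit, and in D + Q mice with DESeq2, RLE factors (adjusted p = 0.042 in edgeR), no filter (adjusted p = 0.046 in edgeR) or without D + Q MOV replicate 5 (adjusted p = 0.0444 in edgeR). Over all genes in sham muscle, DESeq2 called 90 higher and 21 lower in place of 26 and 4. In MOV muscle, where edgeR called 0 (1340 genes at an unadjusted p under 0.05), DESeq2 called 6 higher and 4 lower, the block 2 higher, and the fit without vehicle MOV replicate 4 called 1 higher and 1 lower. Without mitochondrial genes and Rn18s the 38 genes took 5.55%, 5.34%, 4.23% and 4.12% of counts in vehicle sham and D + Q sham mice and then in the MOV mice of the same treatments. With 3 counts as the floor, a gene below 0.114 to 0.168 CPM cannot be seen in these libraries, and Aldoc (0.0803 to 0.866 CPM) was near it.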
